A study of Homo sapiens with 9 samples.

Results

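Small cell lung cancer cells of the line DMS273 that had lost both ATG7 and SQSTM1 were compared with control cells of the same line across every expressed gene. The comparison took the 3 libraries labelled ATG7/SQSTM1 KO and the 3 libraries labelled WT that carried a scrambled guide, which together are 6 of the 9 RNA libraries of the study. The other 3 libraries, labelled ATG7 KO, entered the estimate of the spread and are quoted beside the results. All 9 were grown in the same medium with serum and no drug. Knockouts were made with CRISPRv2, a lentiviral vector that carries Cas9 and the guide together. The labels do not say whether a knockout line is a single clone or a pool, or whether the libraries of a group came from separate cultures, so p-values measure the spread between these libraries, which may be technical.

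Autophagy encloses cytoplasm in a double membrane and delivers it to the lysosome. ATG7 is the E1-like enzyme that activates ATG12 and the LC3 family, and without it the membrane is not decorated with LC3. SQSTM1 encodes p62, which binds ubiquitin chains and LC3, is itself consumed by autophagy, and gathers proteins of the NF-kB and KEAP1-NRF2 pathways. Cells without ATG7 accumulate p62, so removing both genes asks what an autophagy defect leaves when p62 cannot build up.

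The libraries held 28675576 to 34222098 counts and between 26075 and 27439 genes with at least 1 count, and 18847 genes had enough counts to test. Levels below are CPM, counts relative to the size of the library, scaled by TMM, a between-library scaling factor, and fold changes are fitted log2 differences with their standard error (SE). The neuroendocrine transcription factor NEUROD1 stood at 194 ± 3.89 CPM (SD, n = 3) in control. INSM1, SYP, CHGB and NCAM1, other defining neuroendocrine genes, were all between 36 and 90 CPM in control. Of the markers of other cells, HBB, CD3D, CD3E, MUC5AC and SCGB1A1 had no count in any library. Others were present at a low level in control, such as ITGAM of myeloid cells with 79 to 92 counts a library, HBA1 with 61 to 73, CD68 with 61 to 80, TP63 of basal epithelium with 90 to 105 and PECAM1 of endothelium with 25 to 29. ITGAM fell by 1.70 and PECAM1 by 1.08, while CD14 rose by 1.17 from at most 17 counts a control library. Several genes typical of fibroblasts were well expressed in control, LUM at 79.5 CPM among them.

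The guide targets were read first. SQSTM1 (GRCh38 chr5:179806398-179838078, plus strand, protein coding) was 380, 375 and 373 CPM in the control libraries and 55.3, 48.8 and 51.6 CPM once both genes were targeted. Its RNA was thus 7.24-fold lower, the call with the smallest p of all genes (edgeR adjusted p = 1.37e-22). ATG7 (chr3:11272309-11557665, plus strand, protein coding) was 28.1, 26.4 and 26.8 CPM in control and 11.2, 10.4 and 10.2 CPM in the double knockout, a change of −1.35 ± 0.08 (SE, log2, edgeR adjusted p = 2.46e-11). No library of one group reached the range of the other for either gene.

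A gene was called at a Benjamini-Hochberg adjusted p under 0.05 over all tested genes. In ATG7/SQSTM1 KO against control 7281 genes were called, which is 38.6% of those tested. Of these, 3580 were higher (19% of tested genes) and 3701 lower (19.6%). Most changes were small. The median size of a called change was 0.29 on the log2 scale, and 77.7% of the called genes moved less than 1.5-fold. At least 2-fold changes were called for 414 genes that rose (2.2%) and 312 that fell (1.66%), or 238 and 156 among genes with a mean of at least 1 CPM. Between ATG7/SQSTM1 KO and ATG7 KO, which share no libraries, 60.5% of tested genes were called. The control and double knockout libraries did not overlap at all for 48.8% of the tested genes, so a gap between the groups was common, and gene lists below are read against these shares. The shares called grew with the level of a gene: among protein-coding genes 22.9% were higher and 23.1% lower, and of those with a mean of at least 77.7 CPM 27.7% and 32.9%. For every gene whose library values are printed below for both groups, HLA-DQA1 aside, the control and double knockout ranges lay apart. That follows largely from how these genes were chosen: for lack of overlap, for small p or after their values were seen. It is no result about them. These are bulk libraries, in which fewer cells of a type and less RNA per cell cannot be told apart. In ATG7 KO against the same control libraries 28.4% of genes were called higher and 28.3% lower. The 2 knockout comparisons share those control libraries, so their values are set side by side and no overlap is drawn from them.

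**Figure D1:**
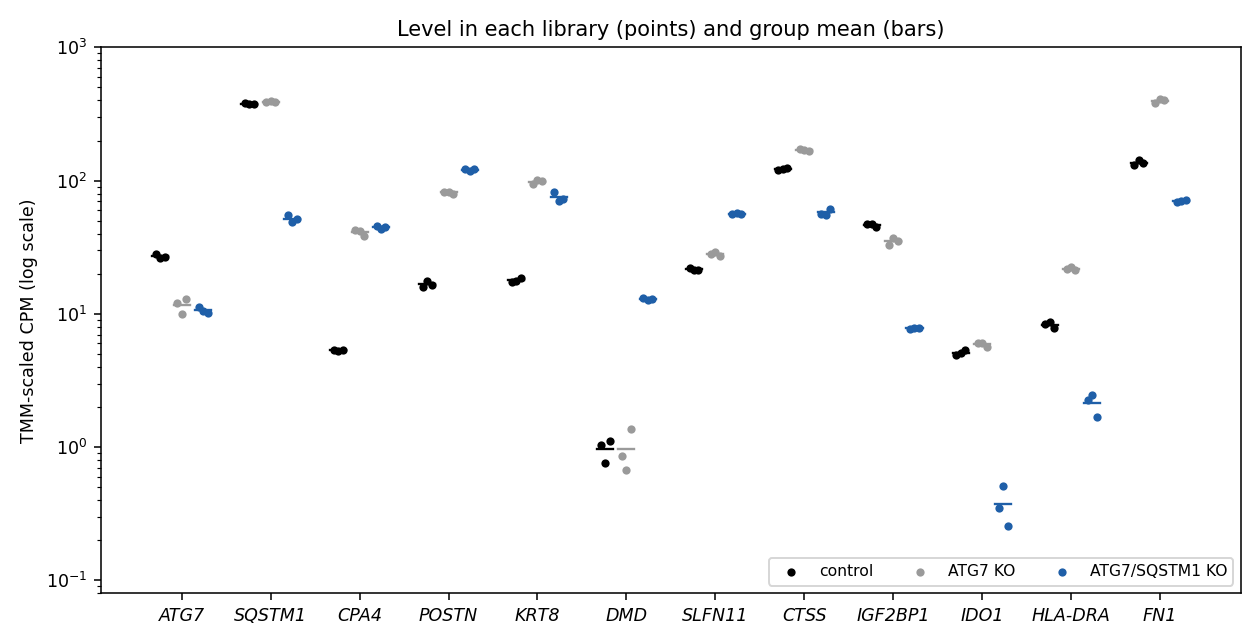
TMM-scaled CPM on a log axis for 12 genes in each of the 9 libraries, with points for libraries and short bars for group means (n = 3). The blue ATG7/SQSTM1 KO points lie apart from the black control points for every gene shown, with SQSTM1 near 52 CPM in the double knockout and above 370 CPM in the other groups.

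Most of the strongest calls among abundant genes that rose came from one stretch of chromosome 16. Of the 10 genes with the smallest p among rises with a mean of at least 100 CPM in one of the groups, 8 lie on chromosome 16 between 46 and 59 Mb. They included ADGRG1, an adhesion G protein-coupled receptor, CNOT1, the scaffold of the CCR4-NOT deadenylase, GOT2, the mitochondrial aspartate aminotransferase, VPS35 of the retromer, the peroxisomal protease LONP2, the RNA demethylase FTO, and RBL2, a relative of the retinoblastoma protein. CNOT1 rose from 544, 559 and 556 CPM in control to 1059, 1083 and 1074 CPM in ATG7/SQSTM1 KO. GOT2 rose from 275, 274 and 277 to 499, 497 and 503 CPM. The roles given for these genes differ. Their log2 changes were 0.95 for CNOT1, 0.86 for GOT2 and for VPS35, 0.92 for RBL2, 1.02 for LONP2 and 1.09 for FTO. ADGRG1 rose further, by 1.86.

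Neighbouring genes in this stretch shifted together. Of the 70 protein-coding genes there with at least 5 CPM in control, 67 were called higher and 60 were at least 1.5-fold higher. The median over all 81 tested protein-coding genes of the stretch was 0.87 on the log2 scale, a 1.83-fold rise. Per library, the median log2 ratio to the control mean was 0.86, 0.85 and 0.86 in the ATG7/SQSTM1 KO libraries and lay between −0.01 and 0.01 in the control libraries. In the ATG7 KO libraries it was 0.21, 0.17 and 0.21. The double knockout differed from ATG7 KO as well, with 69 of the 81 genes called higher and 8 called lower in that direct comparison.

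The shift did not cover the whole chromosome. Below 46 Mb on the same chromosome, the 358 tested protein-coding genes had a median of 0.03. From 66 to 69 Mb the median was 0.46 (71 genes, 52 called higher and 1 lower), from 69 to 80 Mb it was 0.09, and from 80 Mb on it was −0.22 (82 genes, 5 called higher and 47 lower). A few genes inside the raised stretch moved less than their neighbours. MMP2, the matrix gelatinase, was 105, 101 and 107 CPM in control and 112, 108 and 116 CPM in the double knockout, and its call was lost without ATG7/SQSTM1 KO replicate 3 (log2 change 0.07) and without control replicate 2 (0.08). CYLD, a deubiquitinase that restrains NF-kB, rose by 0.46 and NLRC5, which activates MHC class I genes, by 0.42.

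**Figure D2:**
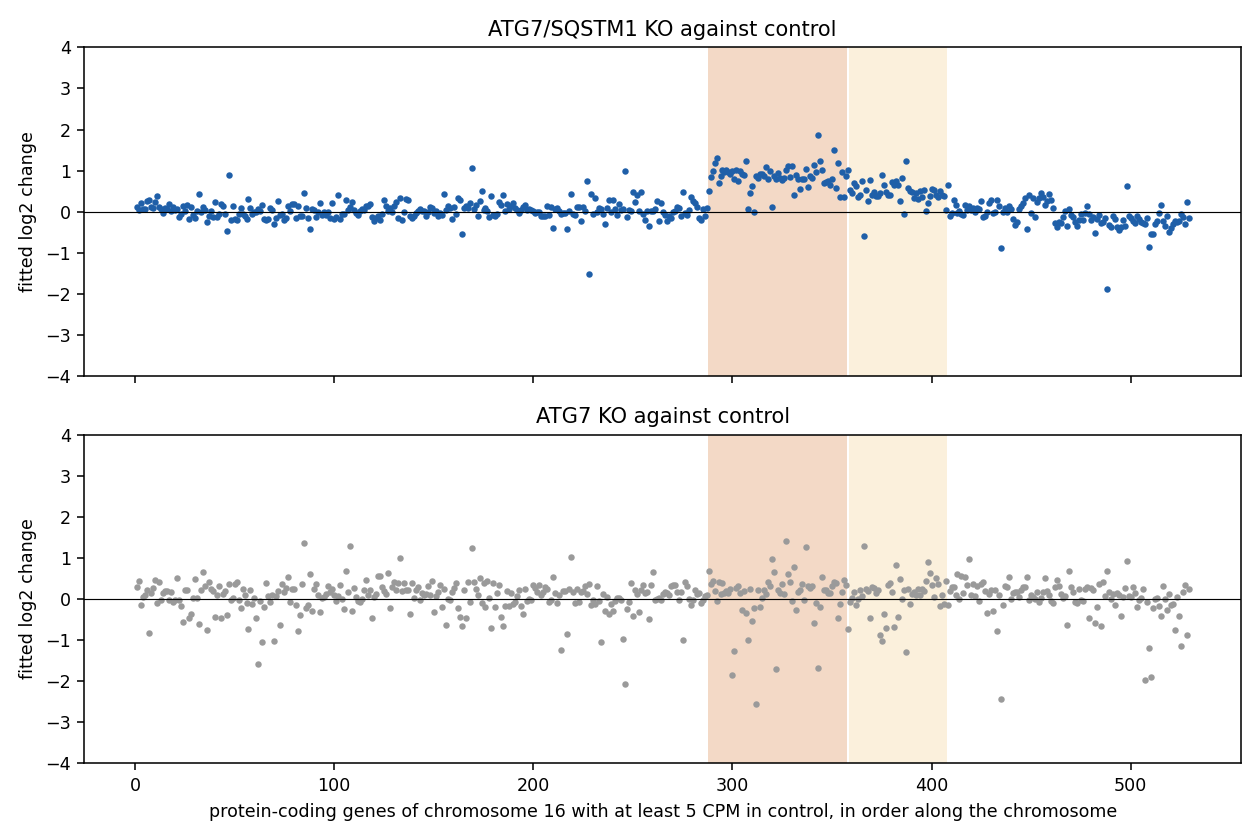
Fitted log2 change of each protein-coding gene of chromosome 16 with at least 5 CPM in control, in order along the chromosome, for ATG7/SQSTM1 KO (upper) and ATG7 KO (lower) against control. The darker band marks genes between 46 and 59 Mb, where the median over tested genes is 0.87 in the upper panel and 0.21 in the lower, and the paler band those between 66 and 69 Mb, where it is 0.46 and 0.09.

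Smaller shifts of the same kind were spread over other chromosomes. The tested genes were binned into windows of 10 Mb, and 279 windows held at least 20 of them. The median log2 change was within 0.2 of 0 in 255 windows, at least 0.2 above 0 in 16 and at least 0.2 below it in 8. These medians ran from −0.38 to 0.94. In ATG7 KO against control the medians of the same windows ran from −0.56 to 0.25. Slightly fewer of these windows were within 0.2 of 0 in ATG7 KO than in the double knockout. Medians beyond 0.2 were thus not limited to the double knockout, and were slightly more common in ATG7 KO. On chromosome X between 5 and 40 Mb 61 of 91 protein-coding genes were called higher and 8 lower, with a median of 0.44, and PRPS2, which makes the precursor of nucleotide synthesis, went from 147, 150 and 150 to 297, 295 and 291 CPM. On chromosome 2 between 95 and 200 Mb 220 of 367 were higher and 13 lower (median 0.22), against 93 higher and 64 lower of 382 below 95 Mb (median 0.04). On chromosome 19 between 40 and 50 Mb the median was 0.28 in ATG7/SQSTM1 KO and 0.25 in ATG7 KO.

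Other regions were lower. On chromosome 21, 98 of 141 protein-coding genes were called lower and 1 higher, with a median of −0.29, and each of the 3 double knockout libraries had a median of −0.27 against the control mean. On chromosome 9 between 25 and 40 Mb 66 of 89 genes were lower and 4 higher (median −0.32), and along chromosome 6 below 45 Mb 188 of 390 were lower and 28 higher (median −0.16). In ATG7 KO the medians of these 3 regions were −0.02, 0.00 and 0.06. Around the guide targets themselves, the 24 tested genes between SQSTM1 and the chromosome end had a median of −0.20, with 9 called lower and 1 higher, and the 25 within 2 Mb on its other side had a median of −0.15. Next to ATG7 the corresponding medians within 2 Mb were −0.01 and 0.01. The number of DNA copies of these regions was not tested. Genes in the 24 shifted windows made up 962 of the 7281 calls. The threshold of 0.2 left other one-sided windows unmarked, so 962 does not count all calls in regions that moved together. On chromosome 11 between 60 and 70 Mb 118 genes were lower and 24 higher (median −0.18). On chromosome 2 between 180 and 190 Mb 19 were higher and 2 lower (median 0.17). Genes of windows with too few tested genes for a median also counted as unshifted. Without genes of the shifted windows 6319 of 17168 genes were called, 2970 higher and 3349 lower. Where a gene below lies in a shifted window, its window median is given.

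**Figure D3:**
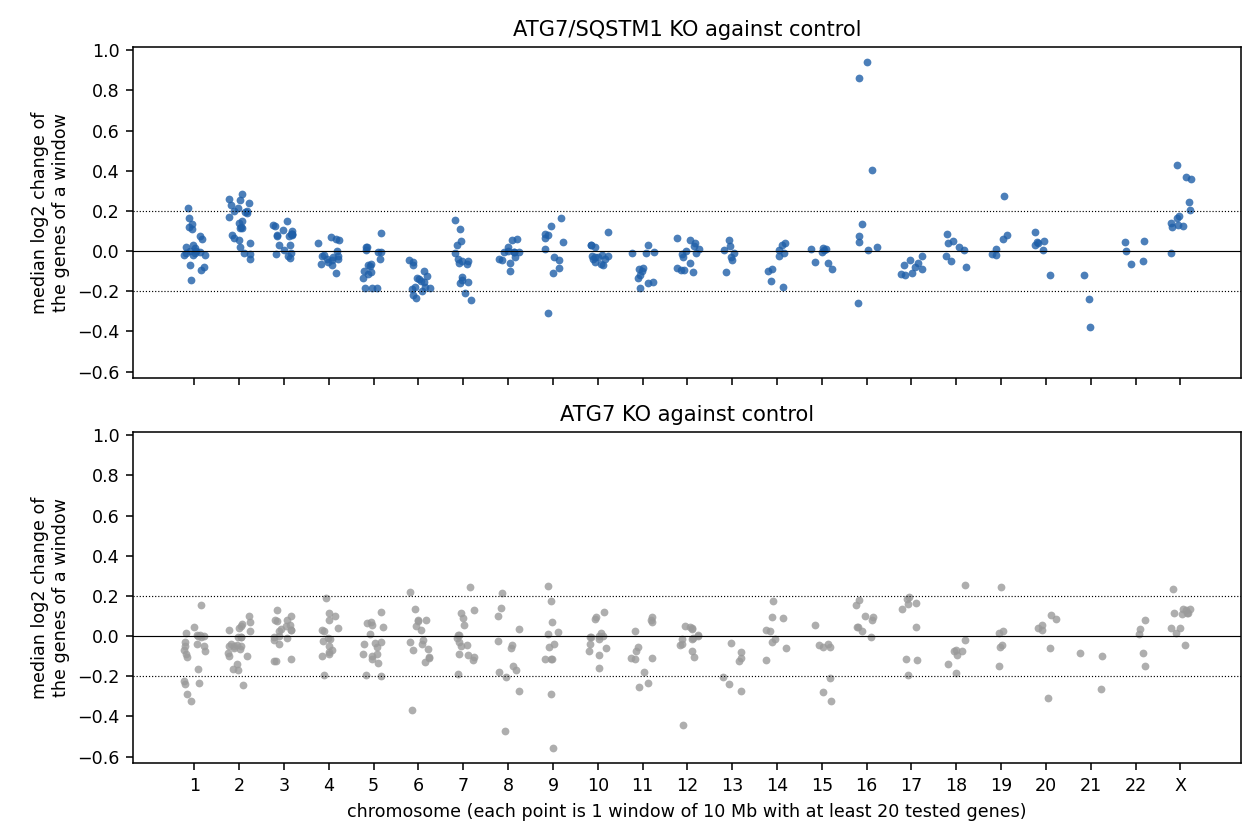
Median log2 change of the tested genes in each window of 10 Mb, by chromosome, for ATG7/SQSTM1 KO (upper) and ATG7 KO (lower) against control, with dotted lines at 0.2 above and below 0. In the upper panel 2 windows of chromosome 16 stand at 0.86 and 0.94, the windows of chromosome X are mostly above 0 and those of chromosome 6 mostly below it.

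Genes of the autophagy machinery itself moved little. Of 33 core genes, 8 were called higher and 7 lower, with a median of 0.02. ULK2, a kinase that starts autophagosome formation, rose from 14, 15.9 and 16.3 to 24, 22.4 and 22.9 CPM. MAP1LC3A, an LC3 family member, rose from a low level (1.62, 1.14 and 1.09 to 4.05, 3.54 and 3.47 CPM). The lipid transfer protein gene ATG2A fell by 0.35. Among 22 genes for cargo receptors, SQSTM1 not counted as a finding here, 4 were higher and 5 lower, and the mitophagy receptor FKBP8 rose by 0.32.

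Lysosomal genes were split, with 14 of 40 higher and 10 lower. CTSZ and CTSH, both cathepsins, rose by 0.43 and 0.56, and the membrane protein LAMP2 by 0.31. The cathepsin S gene CTSS went the other way. It was 121, 122 and 125 CPM in control and 56.6, 55.4 and 61.1 CPM in ATG7/SQSTM1 KO, with 173, 170 and 166 CPM in ATG7 KO, so the double knockout libraries lay below both other groups (log2 change −1.08 ± 0.04 against control, edgeR adjusted p = 2.25e-15).

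Genes of the proteasome were mostly lower, each by a small amount. The proteasome degrades ubiquitylated proteins in a barrel, the 20S core, that is capped by the 19S particle, which unfolds the substrate. Of 19 genes of the 19S particle, 14 fell and 2 rose, with a median of −0.24. Of 14 genes of the 20S core 11 fell and 1 rose, with a median of −0.14. With each gene's window median taken off, the medians of the 19S and 20S lists were −0.23 and −0.10. Across all tested genes 19.6% fell and 19% rose. Among protein-coding genes with a mean of at least 77.7 CPM it was 32.9% and 27.7%. The ATPase genes PSMC1 and PSMC2 fell furthest. PSMC1 was 156, 147 and 163 CPM in control and 108, 112 and 114 CPM in the double knockout. PSMC2 was 179, 175 and 189 against 125, 135 and 128 CPM.

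In ATG7 KO 17 of the 19 and 10 of the 14 genes were higher than in control. Set directly against ATG7 KO, the double knockout was called lower for 18 of 19 and 11 of 14 genes and higher for none of either list. The exceptions that rose against control were PSMD7 and PSMD8 of the 19S particle and PSMB7 of the core. PSMD7 rose by 0.14 and lies on chromosome 16, and PSMB7 rose by 0.11, a call that was lost without ATG7/SQSTM1 KO replicate 2 or 3 or control replicate 1 or 2, at log2 changes between 0.08 and 0.10. Of 17 genes for assembly factors and activators, 8 fell and 2 rose. PSMG1, an assembly chaperone, fell by 0.39 but lies on chromosome 21 in a window with a median of −0.24, while POMP, the maturation factor, fell by 0.23 in a window with a median of −0.03. The inducible subunits PSMB8 and PSMB9 fell by 0.10 and 0.18, and both calls were lost with DESeq2 (adjusted p of 0.109 and 0.0562), with edgeR on the 6 compared libraries alone, and without ATG7/SQSTM1 KO replicate 3 or control replicate 1 or 3.

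The segregase VCP, which pulls ubiquitylated proteins out of membranes and complexes, fell from 539, 535 and 547 to 386, 379 and 384 CPM. It lies on chromosome 9 in a window with a median of −0.31, and its own change was −0.50. Its cofactors FAF2 and NPLOC4 fell by 0.24 and 0.25, while the ubiquitin hydrolase UCHL1 rose by 0.20. Over 20 ubiquitin and segregase genes 8 rose and 8 fell.

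Of 22 cytosolic heat shock genes, 9 fell and 3 rose, with a median of −0.09. With each gene's window median taken off, the list median was −0.0002, so the list as a whole did not fall below its surroundings. DNAJA1, an HSP70 cochaperone, was 354, 358 and 354 CPM in control and 238 CPM in all 3 double knockout libraries, and its window on chromosome 9 had a median of −0.31. HSP90AB1, the constitutive HSP90, fell from 3078, 3093 and 3151 to 2632, 2573 and 2566 CPM, and AHSA1, which stimulates the HSP90 ATPase, by 0.35. The mitochondrial chaperonin HSPD1 rose by 0.19. Chaperones of the endoplasmic reticulum had no common direction, with 6 of 27 genes higher and 5 lower. HSPA5 and HSP90B1 rose by 0.26 and 0.17. HERPUD1, which acts in the degradation of misfolded proteins at that membrane, rose from 48.2, 47.6 and 50.8 to 105, 101 and 111 CPM, and it lies in the raised stretch of chromosome 16, where the window median was 0.86.

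NRF2 is the transcription factor of the antioxidant response, which KEAP1 holds down and p62 can release. Its 41 targets and pathway genes went both ways, with 14 higher and 17 lower and a median of −0.01, against 24 higher and 7 lower in ATG7 KO. The aldo-keto reductases fell most. AKR1C3 was 20, 20 and 19.9 CPM in control and 4.81, 6.49 and 5.89 CPM in ATG7/SQSTM1 KO, and AKR1C1 fell by the same 1.80 on the log2 scale. These 2 genes are close copies, so reads could be split between them. SLC7A11, the cystine transporter, fell from 53.7, 51.1 and 45.5 to 30.9, 30.7 and 28.8 CPM. HMOX1, which breaks down heme, rose from 38.9, 40.2 and 39.3 to 60.1, 58.7 and 58 CPM. NQO1, a reductase often used to read NRF2 activity, rose by 0.14, in a window of chromosome 16 with a median of 0.40, and was 265 CPM in control, 293 in ATG7/SQSTM1 KO and 523 in ATG7 KO. NFE2L2, which encodes NRF2, rose by 0.13 in a window of chromosome 2 with a median of 0.21, and KEAP1 fell by 0.28.

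Amino acid transport and tRNA charging genes under ATF4, the transcription factor of the integrated stress response, were lower more often than higher. Of 37 genes 14 fell and 7 rose, with a median of −0.06, a share of falls not far above that of the most abundant genes. The leucine transporter pair SLC7A5 and SLC3A2 fell by 0.44 and 0.32, and glycyl-tRNA synthetase GARS1 went from 552, 563 and 565 to 436, 441 and 441 CPM. SLC7A5 lies near the lowered end of chromosome 16, in a window with a median of −0.26.

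Interferon-stimulated genes, the antiviral genes that type I interferon turns on, were partly raised. Of 46 tested, 23 were called higher and 4 lower, with a median of 0.14, and the other 19 passed no threshold. In ATG7 KO all 46 were higher, with a median of 1.91, and the double knockout was called below ATG7 KO for all 46. IFITM3, which blocks virus entry, was 76.7, 77.8 and 80.4 CPM in control, 133, 137 and 142 CPM in ATG7/SQSTM1 KO and 423, 422 and 445 CPM in ATG7 KO, so the 3 groups were apart. IFIT2, an RNA-binding antiviral gene, rose from 5.83, 6.13 and 5.64 to 12.3, 11.4 and 11.7 CPM.

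IFIT1 rose from 9.98, 8.44 and 8.1 to 15.5, 15.6 and 15.1 CPM, and IFI27 by 0.92. RSAD2, the radical SAM enzyme viperin, rose by 1.67 from 1.1, 1.59 and 2.02 CPM. The 4 that fell were TRIM22, MX2, SAMD9L and OAS3. TRIM22, a ubiquitin ligase, was 2.5, 1.52 and 1.86 CPM in control and 0.496, 0.618 and 0.669 CPM in the double knockout, while ATG7 KO stood at 14.3 CPM. MX2 fell by 0.65 on chromosome 21, where its window had a median of −0.38, and SAMD9L by 0.37. OAS3 fell by 0.13 in a window of chromosome 12 with a median of −0.10. Its call was lost without ATG7/SQSTM1 KO replicate 2 (log2 change −0.10).

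Of these genes, IFITM3 and IFIT1 rose, while OAS3 fell by little more than its window median. Their 3 promoters are printed because they hold the letters of the interferon-stimulated response element. They are RefSeq sequences of GRCh38.p14, from 250 bases before to 50 bases after the transcription start, 5′ to 3′ along the gene. Capitals mark GAAA, any 2 bases and GAAA again, on either strand, and matches may overlap.
IFITM3, chr11:320811-321110, minus strand: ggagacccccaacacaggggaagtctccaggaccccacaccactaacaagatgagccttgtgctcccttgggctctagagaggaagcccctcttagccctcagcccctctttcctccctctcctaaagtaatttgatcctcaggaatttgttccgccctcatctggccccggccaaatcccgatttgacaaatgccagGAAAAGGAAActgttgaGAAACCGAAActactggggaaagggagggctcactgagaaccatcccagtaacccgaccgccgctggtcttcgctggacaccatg
IFIT1, chr10:89392373-89392672, plus strand: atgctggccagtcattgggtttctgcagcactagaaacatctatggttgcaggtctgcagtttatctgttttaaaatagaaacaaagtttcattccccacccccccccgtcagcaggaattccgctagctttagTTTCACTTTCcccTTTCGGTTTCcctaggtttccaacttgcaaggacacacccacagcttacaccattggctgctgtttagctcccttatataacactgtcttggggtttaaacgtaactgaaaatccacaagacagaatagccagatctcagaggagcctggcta
OAS3, chr12:112938224-112938523, plus strand: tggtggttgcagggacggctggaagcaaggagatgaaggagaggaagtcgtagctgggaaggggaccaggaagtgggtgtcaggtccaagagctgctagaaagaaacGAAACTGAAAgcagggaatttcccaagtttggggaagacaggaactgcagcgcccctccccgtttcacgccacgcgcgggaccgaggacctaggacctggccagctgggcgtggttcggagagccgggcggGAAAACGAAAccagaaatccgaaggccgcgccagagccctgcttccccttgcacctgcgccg
All 3 promoters hold 2 matches. Of the 46 listed genes, 38 had a promoter in the table, and 26 of these held at least 1 match. Among those called higher it was 16 of 20, and of the 2 lower genes with a promoter 1 held it. Listed genes that were not called held matches too, IFI6 and HERC5 with 3 each. Of all 27305 promoters listed, 3.65% held one. The list was chosen for response to interferon, so its difference from all promoters does not bear on which of its genes rose. A match is a string of letters and shows no binding.

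Genes for sensing RNA and DNA and for interferon signalling were balanced, with 6 of 30 higher and 6 lower. IFI16, a sensor of DNA, fell from 36.1, 39.9 and 35.2 to 18.7, 17.2 and 21.4 CPM and was 116 CPM in ATG7 KO. The receptor gene IFNAR1 fell by 0.49 in a window of chromosome 21 with a median of −0.24.

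Antigen presentation by MHC class II, which usually belongs to immune cells and can be induced by interferon gamma, was lower for some genes. Of 9 tested 5 fell and 1 rose, with a median of −0.25, and 4 had a fitted change above 0. In the fit of the 6 compared libraries alone 4 fell and the median was −0.10. HLA-DRA was 8.42, 8.68 and 7.81 CPM in control and 2.24, 2.47 and 1.69 CPM in ATG7/SQSTM1 KO, against 21.8 CPM in ATG7 KO. HLA-DQA1, which is counted among the 5, had 0.122, 0.276 and 0 CPM in the control libraries and no count in the double knockout libraries, so it rests on very few counts and the groups meet at 0. HLA-DRB1, whose reads can be shared with near-identical copies, fell by 1.61, and the invariant chain CD74 by 0.47. The gene that rose was CIITA, the master regulator of this class, at a log2 change of 0.32, and its call was lost without ATG7/SQSTM1 KO replicate 2 (0.23) or control replicate 1 (0.22). HLA-DPA1 lost its call without ATG7/SQSTM1 KO replicate 1 (log2 change −0.19). Of 16 class I genes 6 fell and 2 rose, with a median of −0.06, or 0.04 with each gene's window median taken off. The peptide transporter TAP2 fell by 0.29 and the trimming peptidase ERAP1 by 0.37, and NLRC5, which rose, lies in the raised stretch of chromosome 16.

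The enzymes of tryptophan breakdown, which limit T cell responses, were among the largest falls. IDO1, the first enzyme, was 4.91, 5.1 and 5.31 CPM in control, 0.35, 0.515 and 0.255 CPM in ATG7/SQSTM1 KO, and 5.91 CPM in ATG7 KO. KYNU, kynureninase, was 9.34, 8.79 and 9.35 against 2.39, 2.3 and 2.23 CPM, and 10.6 CPM in ATG7 KO. UBD, a ubiquitin-like modifier induced by interferon gamma and TNF, fell from 12.5, 12.4 and 13.4 to 2.27, 2.3 and 2.74 CPM. In the same list of 15 checkpoint and tryptophan genes 5 rose and 3 fell, and NECTIN2, a ligand of TIGIT, rose by 0.84 in the window of chromosome 19 with a median of 0.27.

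Complement and acute phase genes rose. Of 17, 10 were higher and 2 lower, with a median of 0.47. C3, the central complement component, rose from 146, 143 and 141 to 192, 192 and 199.6 CPM. CFB rose by 0.88 and CLU, the chaperone clusterin, from 38.3, 39.4 and 37.7 to 59.7, 60.4 and 64.8 CPM. C4A and C4B are near-identical copies whose reads cannot be parted with certainty, and both were called higher. SAA1 stayed low, with 0.702, 0.689 and 0.8 CPM in control and 1.98, 1.75 and 1.75 CPM in the double knockout.

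NF-kB subunits and targets went both ways, with 13 of 36 lower and 8 higher, against 31 higher and 1 lower in ATG7 KO. Their median in the double knockout was −0.06, or 0.01 with each gene's window median taken off. TNFAIP2 rose from 55.1, 54.8 and 58.3 to 107, 104 and 95.9 CPM, and the cytokine IL32 fell from 112, 110 and 115 to 84.1, 84.4 and 83.4 CPM. Among 25 death receptors, their ligands and adaptors 11 fell and 6 rose, with a median of −0.22. The ligand TNFSF10, known as TRAIL, rose by 0.68, while the receptor FAS fell from 19.8, 20.1 and 19.5 to 13.4, 15 and 14.4 CPM, RIPK1 fell by 0.43 in a window of chromosome 6 with a median of −0.23, and CASP8 fell by 0.47.

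**Figure D4:**
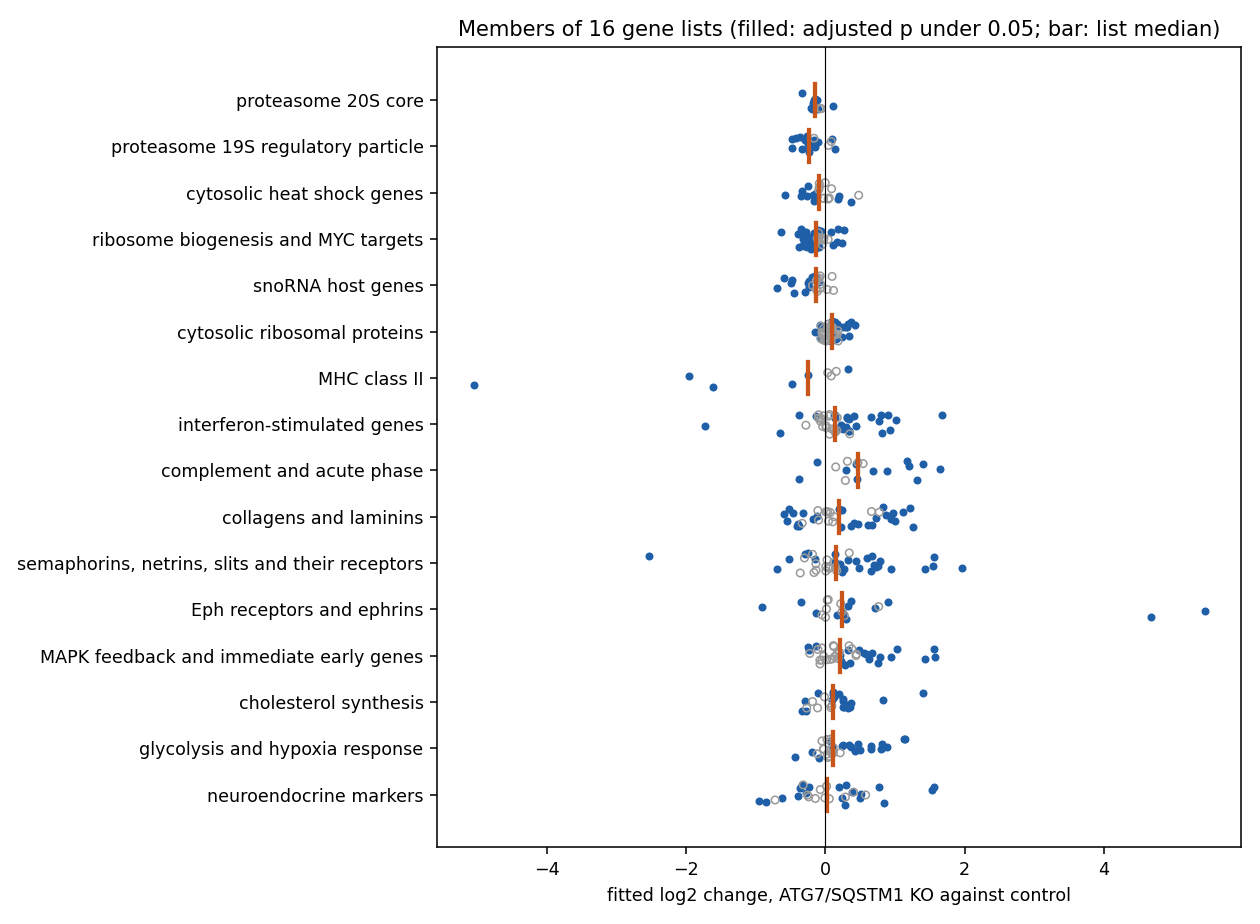
Fitted log2 change of each tested member of 16 gene lists, ATG7/SQSTM1 KO against control, with filled points for genes at an edgeR adjusted p under 0.05, open points for the others, and an orange bar at the list median. Medians in the plot run from −0.25 for MHC class II to 0.47 for complement, and the outermost points are HLA-DQA1 on the left and EPHA7 and EPHA6 on the right, all near 0 CPM in one of the groups.

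Neuroendocrine markers as a list stayed near the control level, with single genes moving either way. Of 31 markers 11 rose and 8 fell, with a median of 0.02, while in ATG7 KO 26 fell and 3 rose, with a median of −1.49. NEUROD1 went from 198, 190 and 195 to 245, 237 and 231 CPM and SYP, synaptophysin, from 51.6, 53.3 and 54.1 to 60.8, 67.4 and 64.8 CPM. NCAM1, a surface adhesion molecule, fell from 38.2, 37.8 and 41 to 21.4, 21.8 and 21.9 CPM. INSM1 and CHGB fell by 0.28 and 0.24. The summed level of the list was 1168 to 1208 CPM in the control libraries and 1257 to 1304 CPM in the double knockout libraries, so the groups were apart by a narrow margin.

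Among 27 factors that define subtypes and lineages of this cancer 10 rose and 8 fell. MYC was 1174, 1169 and 1158 CPM in control, 1596, 1619 and 1658 CPM in ATG7/SQSTM1 KO, and between 1149 and 1169 CPM in ATG7 KO. Its paralog MYCL fell from 228, 220 and 226 to 177, 170 and 177 CPM. SOX11, a neural progenitor factor, rose from 10.1, 10.3 and 10.1 to 31.4, 30.8 and 31 CPM, and PROX1 rose by 0.82 in a window of chromosome 1 with a median of 0.21. YAP1 rose from 30.2, 31.9 and 33.4 to 46.1, 45.1 and 46.2 CPM. In the Notch pathway 9 of 29 genes rose and 5 fell, with the receptor NOTCH3 up by 0.78 and the ligand JAG2 down by 0.33.

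Markers of the non-neuroendocrine state were mostly higher, but the changes with the smallest p were falls, of PLAU and CAV1. Of 26, 16 rose and 7 fell, with a median of 0.32. PLAU, the urokinase protease, was 19.3, 22.5 and 21.5 CPM in control and 6.68, 7.62 and 6.44 CPM in the double knockout, and 62.5 CPM in ATG7 KO. CAV1, caveolin, fell from 47.5, 46.3 and 46.7 to 26.2, 30.1 and 29.2 CPM. CCND1 fell by 0.37. Summed, the list stood at 1459 to 1466 CPM in control, 1498 to 1530 CPM in ATG7/SQSTM1 KO and 2477 to 2569 CPM in ATG7 KO.

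Keratins of simple epithelia rose together. KRT8 went from 17.4, 17.8 and 18.7 to 82.4, 70.4 and 73.3 CPM and its partner KRT18 from 18.7, 18.4 and 17.7 to 49, 46.1 and 52.7 CPM. Both have many processed pseudogenes, which could take or lend reads. CDH1, E-cadherin, rose from 2.35, 2.55 and 2.72 to 7.43, 7.76 and 7.71 CPM in a window of chromosome 16 with a median of 0.40. The desmosome gene DSP fell by 0.95 in a window of chromosome 6 with a median of −0.23. Over 20 epithelial genes 6 rose and 2 fell.

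Genes of the extracellular matrix changed strongly and in both directions. Of 39 collagen and laminin genes 18 rose and 10 fell, with a median of 0.20. COL4A2 and COL4A1, which build basement membranes and share a promoter, rose by 1.12 and 0.67. COL4A2 was 60.9, 65.8 and 62 CPM in control, 139, 140 and 129 CPM in ATG7/SQSTM1 KO and about 61.5 CPM in ATG7 KO. The fibrillar collagens COL3A1 and COL5A1 rose by 0.99 and 0.87. COL6A3 fell by 0.46.

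POSTN, periostin, a matrix protein that integrins bind, had the second smallest p of all genes. It was 15.8, 17.5 and 16.6 CPM in control and 121, 118 and 122 CPM in the double knockout, with 81.5 CPM in ATG7 KO. FN1, fibronectin, fell from 131, 144 and 135 to 69.7, 70.4 and 71.9 CPM while ATG7 KO stood at 398 CPM, and TNC, tenascin C, fell by 1.04. MXRA5 and MFAP4, matrix-associated genes, fell by 0.92 and 0.96. FBN2, a fibrillin, rose by 1.21.

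Of 27 matrix proteases and inhibitors 13 rose and 8 fell. CPA4, a carboxypeptidase, rose from 5.37, 5.31 and 5.31 to 46, 43.7 and 45 CPM. ANPEP, aminopeptidase N, fell from 5.65, 5.62 and 5.7 to 0.641, 0.892 and 1.24 CPM. CPA4 is also a listed target of YAP and TAZ, the coactivators of the Hippo pathway. Of 29 such targets 16 rose and 7 fell, and CCN1 rose from 16.8, 17.1 and 18.2 to 54.7, 51.6 and 56.2 CPM. Integrin genes were higher for 11 of 25 and lower for 4, ITGA5 and ITGA3 among those that rose.

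Most of the markers listed for fibroblasts are themselves matrix genes, so their levels are not separate from those above. Of the 10 tested, 7 rose and 2 fell, with a median of 0.91, and their summed level was 217 to 234 CPM in control, 469 to 488 CPM in ATG7/SQSTM1 KO and 815 to 860 CPM in ATG7 KO. DCN, decorin, rose from 7.51, 7.37 and 7.62 to 31.6, 33.8 and 32.4 CPM, and COL1A1 by 0.83. Of the markers that are not matrix genes, PDGFRA rose from 2.29, 1.90 and 2.69 to 4.93, 5.11 and 4.97 CPM, FAP fell by 0.76 in a window with a median of 0.25, PDGFRB, with 0.843 CPM in control and 0.614 CPM in the double knockout, was not called, and THY1 had at most 5 counts in any control library and at most 3 in any double knockout library. The part of other cells in the matrix changes was not tested.

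A few muscle genes appeared in the double knockout. CKM, muscle creatine kinase, was 0.153, 0.345 and 0.288 CPM in control and 6.56, 6.97 and 6.37 CPM in ATG7/SQSTM1 KO. DMD, dystrophin, was 1.04, 0.758 and 1.12 against 13.1, 12.7 and 13 CPM, and both were near the control level in ATG7 KO. CKM lies in the window of chromosome 19 with a median of 0.27 and DMD in a window of chromosome X with a median of 0.43. UTRN, the dystrophin relative utrophin, rose by 1.16. Of 28 dystrophin complex and muscle genes 12 rose and 2 fell, SGCB among the latter, and 5 fell where libraries were scaled by totals and 4 without control replicate 3. The myogenic factors MYOD1 and MYOG were near 1 CPM in control and stood at 2.45 and 2.32 CPM without both genes, while MYF5, MYH1, MYH2 and MYH8 had no count in any library.

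Axon guidance genes were more often higher. Of 42 semaphorin, netrin, slit and receptor genes 21 rose and 6 fell, with a median of 0.15, and of 21 Eph receptors and ephrins 9 rose and 3 fell, with a median of 0.24. EPHA6, an Eph receptor, went from 0.214, 0.241 and 0.128 to 9.39, 8.62 and 7.74 CPM and was 0.152 CPM in ATG7 KO. EPHA7 had 0.122, 0.138 and 0 CPM in the control libraries and 2.19, 2.27 and 2.42 CPM in the double knockout. The secreted semaphorin SEMA3F rose from 10.6, 10.4 and 10.2 to 29.7, 27.1 and 27.4 CPM, and SEMA6C by 0.75. PLXNA3, a receptor of semaphorins, rose by 0.60. The slit ligand SLIT2 went the other way, at a fitted log2 change of −2.54.

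Synapse and neurite genes were balanced, with 10 of 41 higher and 14 lower, against 1 higher and 36 lower in ATG7 KO. DPYSL3, a cytoskeletal regulator of growth cones, fell from 290, 297 and 299.9 to 181, 180 and 178 CPM. GAP43, the growth cone protein, rose from 23.8, 24.7 and 23.8 to 48.7, 44.1 and 44.3 CPM, and MAP2 by 0.81. CNTNAP2, which organises axonal potassium channels, fell from 42.5, 45.7 and 43.9 to 9.39, 9.85 and 9.05 CPM. Of 35 voltage-gated channel genes 8 rose and 5 fell. KCNMA1 and KCNA2, both potassium channels, each fell by 0.77. Without genes of shifted windows 4 of 29 channel genes were higher and 5 lower.

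Receptor tyrosine kinases and growth factors rose for 15 of 42 genes and fell for 6. DDR2, a collagen receptor, went from 98.7, 98 and 97.1 to 133, 145 and 144 CPM, and HGF, the ligand of MET, rose by 0.77. Downstream of such receptors, 17 of 40 feedback and immediate early genes of the MAPK pathway rose and 3 fell, with a median of 0.22. EGR1 was 17.6, 20 and 18.2 CPM in control and 46.8, 59.2 and 58.9 CPM in ATG7/SQSTM1 KO. SPRY4, a feedback inhibitor, rose from 1.89, 2.76 and 2.75 to 7.49, 7.52 and 6.91 CPM. FOS, IER3 and DUSP2 also rose, by 1.43, 0.93 and 0.55, and the window of DUSP2 had a median of 0.23.

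Of 44 TGF-beta and BMP genes 18 rose and 4 fell. The BMP antagonist GREM1 fell from 38.7, 37.5 and 37.1 to 10.1, 10.2 and 11.8 CPM and was 38.9 CPM in ATG7 KO. The ligands TGFB2 and BMP5 rose by 0.80 and 1.34, and the window of TGFB2 on chromosome 1 had a median of 0.21. WNT genes were balanced, with 12 of 44 higher and 11 lower, and NKD1, which rose by 1.23, lies in the raised stretch of chromosome 16. Cadherins and protocadherins rose for 9 of 28 and fell for 5, and without genes of shifted windows for 5 and 4 of 22. CDH11 rose by 1.01 and CDH15 fell by 0.85, both on chromosome 16, in windows with medians of 0.40 and −0.26.

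IGF2BP1, an oncofetal protein that stabilises mRNAs, was 47.2, 47.1 and 44.9 CPM in control and 7.73, 7.83 and 7.87 CPM in ATG7/SQSTM1 KO, with 35 CPM in ATG7 KO. The imprinted noncoding RNA H19 rose from 2.32, 2.07 and 2.79 to 10.8, 13 and 13.3 CPM. HOXB9 fell from 5.77, 5.13 and 5.22 to 0.904, 1.2 and 1.05 CPM, whereas HOXA9 and HOXA3 rose by 0.44 and 0.89. Of 31 HOX genes 8 rose and 3 fell. FOXF1, a mesenchymal transcription factor, and FENDRR, the noncoding RNA transcribed beside it, fell by 1.89 and 2.56 in a window of chromosome 16 with a median of −0.26. Among 28 Polycomb and DNA methylation genes 5 rose and 8 fell, with the demethylase TET1 up by 0.73 and BMI1 down by 0.42.

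Lipid genes rose more often than they fell. Of 26 cholesterol synthesis genes 15 were higher and 4 lower. HMGCS1, an enzyme of the pathway, rose from 62.9, 60.3 and 62.3 to 76.2, 80.1 and 80.5 CPM. Of 31 fatty acid genes 11 rose and 5 fell. FADS2, a desaturase, rose from 18.8, 18.7 and 18.6 to 54.1, 56.7 and 55.8 CPM, and PLIN2, which coats lipid droplets, from 42.1, 35.9 and 46.3 to 126, 139 and 156 CPM. The fatty acid transporter CD36 rose by 0.84. FABP7, a brain fatty acid binding protein, fell from 34.2, 30.7 and 35 to 10.6, 11.2 and 11.5 CPM and was 147 CPM in ATG7 KO, and CPT1A, the gate of mitochondrial fatty acid oxidation, fell by 0.60.

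Glycolysis and hypoxia genes were higher for 19 of 37 and lower for 3, with a median of 0.11, or 15 and 3 where libraries were scaled by their totals alone. PDK1, which slows entry of pyruvate into mitochondria, rose from 92.2, 90.1 and 100.4 to 126, 135 and 129 CPM in a window with a median of 0.21, and was 45.6 CPM in ATG7 KO. SLC16A3, a lactate exporter, rose by 1.13 and P4HA1 by 0.49. NDRG1 rose by 0.81 from scattered control values of 56.7, 43.3 and 63.9 CPM, and HK1 fell by 0.43. Nuclear genes of the respiratory chain were balanced, with 7 of 35 higher and 6 lower. None of the 13 mitochondrially encoded genes was called, their median was 0.19, and DESeq2 called 1 of them, MT-ND3 (adjusted p = 0.0202).

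Genes for making ribosomes and genes for their proteins moved apart. Of 46 ribosome biogenesis and MYC target genes 31 fell and 6 rose, with a median of −0.14. NPM1, nucleophosmin, fell from 3625, 3744 and 3655 to 2937, 3000 and 2982 CPM, and WDR74, a ribosome assembly factor, by 0.64. Both lie in windows with a median of −0.18, just short of the 0.2 threshold. RRP1B fell by 0.39 on chromosome 21, in a window with a median of −0.38. Of 58 cytosolic ribosomal protein genes 26 rose and 3 fell, with a median of 0.09, or 23 and 3 on library totals. RPL12 went from 1090, 1097 and 1093 to 1281, 1398 and 1422 CPM and RPL18 rose by 0.37 in the window of chromosome 19 with a median of 0.27.

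Host genes of small nucleolar RNAs, which are long noncoding RNAs with snoRNAs in their introns, were lower for 13 of 25 and higher for none. SNHG29 was 818, 797 and 888 CPM in control and 505, 524 and 526 CPM in the double knockout, and DANCR fell by 0.60. PABPC4, a cytoplasmic poly(A)-binding protein, fell from 4396, 4656 and 4628 to 3220, 3282 and 3199 CPM.

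Genes of mitosis were lower more often than higher, by small amounts. Of 35 G2/M genes 15 fell and 4 rose, with a median of −0.10. Of 36 G1/S and replication genes 12 fell and 5 rose, with a median of −0.05. With each gene's window median taken off, the list medians were −0.08 for G2/M and 0.003 for G1/S. Among protein-coding genes with a mean of at least 77.7 CPM, 32.9% were lower and 27.7% higher. The share of falls among G1/S genes was near this, and the share of rises was smaller in both lists. The kinesin KIF20A fell from 95.6, 98.1 and 93.4 to 70.7, 71.2 and 72 CPM, and AURKB, the kinase of the chromosomal passenger complex, by 0.41. CCND2 went up from 23.5, 26.8 and 24.8 to 61.9, 64.6 and 60.8 CPM. Of 12 histone genes 8 fell and 1 rose, with a median of −0.55. Most of these lie on chromosome 6, where H2BC12 fell by 0.68 in a window with a median of −0.20. Of 22 p53 targets 7 rose and 7 fell, and CDKN1A, the cell cycle inhibitor p21, fell from 243, 265 and 258 to 204, 211 and 206 CPM.

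Among 20 genes tied to drug response 9 rose and 1 fell, with a median of 0.16. SLFN11, whose loss is known to make tumours resist DNA-damaging drugs, rose from 22.2, 21.2 and 21.2 to 56.1, 57.1 and 56.1 CPM, and was 28.2 CPM in ATG7 KO. SLFN13 rose by 1.04 and the efflux pumps ABCC3 and ABCC5 by 0.59 and 0.25. In the BCL2 family 6 of 16 rose and 4 fell. The killer gene BBC3, known as PUMA, rose by 0.73 in the window of chromosome 19 with a median of 0.27, and HRK fell by 1.43.

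Of 26 iron, heme and metal genes 11 rose and 5 fell, but without genes of shifted windows 5 and 4 of 19 did. MT1X, a metallothionein, rose by 1.10 within the raised stretch of chromosome 16. STEAP4, a metalloreductase, rose from 0.58, 0.551 and 0.352 to 6.06, 6.42 and 6.72 CPM, and CP, the ferroxidase ceruloplasmin, fell from 15.9, 17.3 and 17.9 to 4.93, 5.97 and 6.47 CPM.

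Of the largest changes by fold, several had control levels under 2 CPM. FEZF1-AS1, an antisense RNA, had 0, 0.138 and 0 CPM in the control libraries and 5.6, 5.77 and 5.93 CPM in the double knockout. AQP1, a water channel, went from 0.458, 0.999 and 0.993 to 7.7, 6.73 and 7.97 CPM, and GUCY1A2, a subunit of the nitric oxide receptor, from 1.86, 1.9 and 1.54 to 12, 11.5 and 12.3 CPM. ASIC4, COL24A1, PLEKHG1, ARMC4, ZNF208 and FIRRE also rose by at least 4-fold. PLEKHG1 and FIRRE lie in windows with medians of −0.22 and 0.21. FCAMR, FDCSP, EDIL3 and SLC22A6 were among the 15 largest falls, at −2.48, −2.30, −2.01 and −1.98. ITM2B, a membrane protein gene, and IGFBPL1 fell by 0.79 and 0.85 from 277 and 298 CPM in control replicate 1, the latter in the lowered window of chromosome 9.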

How the data were processed

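Total RNA of 9 DMS273 libraries was depleted of rRNA and made into libraries with a dUTP strand-specific kit and 12 cycles of PCR, per the labels' protocols. The authors deposited raw counts per gene, with no normalization visible in the values. The submitters' processing notes name HISAT2, an aligner, and hg38. How reads were counted, and with which strand setting and annotation, is not given in the sources used here. Empty cells were read as 0, and 1 unlabelled column and 1 row that numbers the columns were left out. Coordinates and gene types are from GENCODE 29 on GRCh38.

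Counts were filtered with filterByExpr (minimum count 10), scaled by TMM and fitted with edgeR 4.0.16 (robust quasi-likelihood, R 4.3.3) over all 9 libraries, with 6 residual degrees of freedom and Benjamini-Hochberg adjustment at 0.05. The fit was tested on simulated data with 200 changed genes, each drawn on its own. In the real comparison 7281 genes were called and neighbouring genes moved together, so the simulation does not measure the error of these calls. DESeq2 1.42.0, other scalings and filters, a replicate block, the 6 libraries alone and fits without each library were the alternatives. Replicates differed by more than sampling noise. The common biological coefficient of variation was 6.39%.

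Gene lists (64) and their members were chosen with earlier results of these data known, so their counts are descriptions. Named genes were both targets, the 15 largest rises and falls among called genes with at least 5 CPM in the higher group, no overlap between groups and an informative name, per list the 4 members of smallest p, and the 10 genes of smallest p in each direction with at least 100 CPM. Other genes named were chosen after their values were seen, among them PLIN2, TRIM22, MYCL, NEUROD1, EGR1, PDK1 and CIITA, as were the chromosome segments. Some genes are not reported here.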

Additional observations from a re-analysis of the deposited data

How the results depend on the processing

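The 7281 calls of ATG7/SQSTM1 KO against control became 7253 with relative log expression factors, 7278 with library totals, 6932 with no filter, 7255 from the 6 libraries alone and 6300 with DESeq2, and 6361 to 6538 when 1 library was left out. The minimum mean of 1 CPM gave 238 rises and 156 falls of at least 2-fold, in place of 414 and 312, since fewer genes were tested. Without genes of shifted windows, an alternative chosen after seeing the data, 6319 calls remained, 336 of them rises and 287 falls of at least 2-fold. Over the named genes and these alternatives no direction was reversed, 41 single values lost a call and 5 gained one. Counts of called genes per list moved by over 1.5 times in 72 cases and stayed within that in 1592. Among them, Polycomb genes called lower went from 8 to 5 without ATG7/SQSTM1 KO replicate 2, integrins from 4 to 2 without that library or control replicate 1, cargo receptors from 5 to 3 with DESeq2 or without control replicate 3, and falls in the MAPK list from 3 to 1 with DESeq2, from the 6 libraries, and without ATG7/SQSTM1 KO replicate 3 or control replicate 1 or 3. Leaving out shifted windows moved 10 list counts, among them fewer rises of channels, cadherins and iron genes.

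Same-numbered control and double knockout libraries did not deviate together (correlations of −0.03, −0.03 and 0.02). These values cannot show whether such libraries were processed together. A replicate block gave 7137 calls. The library totals set the precision for genes under about 1 CPM, whose folds rest on few counts.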
